A study of Mus musculus with 8 samples.

Results

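Calb1, Calb2, S100g, Pvalb, Calm2 and Calm3 encode calbindins and other small calcium-binding proteins of the cytosol. They were taken from the read-count table by their gene names, and all 6 were found among its 54532 genes. These proteins bind calcium through the EF-hand, a loop of acidic residues held between a pair of helices. Calbindin-D28k (Calb1), calretinin (Calb2), calbindin-D9k (S100g) and parvalbumin (Pvalb) are known mainly as buffers that bind and carry free calcium, whereas calmodulin (Calm2 and Calm3) changes shape on binding and switches on kinases, phosphatases and calcium pumps. Ameloblasts move large amounts of calcium into enamel, and calbindin-D28k is a long-known cytosolic protein of these cells.

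RNA was sequenced from enamel organs of first molars of wt C57BL/6 mice that had received no treatment. Pups were taken at P5, when the enamel matrix is secreted, and at P12, when enamel matures, and comparing the ages asks which transcripts change between these stages. Each library was a pool of 5 pups, with 4 libraries at each age (numbered 1, 3, 4 and 5 at P5 and 1, 2, 3 and 4 at P12). Total counts were 16963323, 19251202, 16574548 and 20262601 in the P5 libraries and 22013456, 19520437, 18036016 and 17588152 in the P12 libraries, in that order. Libraries are listed in the same order throughout. Values are normalized counts, that is, counts divided by a library size corrected by edgeR's TMM method and multiplied by the mean corrected size.

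The libraries were checked against marker genes of the tissue. Secretory ameloblast markers (Amelx, Ambn, Enam and Mmp20) were lower at P12 in 4 of 4 cases, and maturation ameloblast markers (Klk4, Amtn, Odam, Slc24a4 and Wdr72) were higher in 5 of 5. The secretory markers summed to 5446677, 5202351, 5580346 and 4966559 at P5 and to 237041, 264278, 433633 and 621683 at P12, with Amelx the most abundant at P5 and Ambn at P12. The maturation markers summed to 44228, 36789, 37803 and 12880 at P5 and to 356963, 442551, 458253 and 482565 at P12, with Amtn the most abundant at P5 in the mean and Odam at P12. P5 library 5 thus had the lowest level of both marker sets at its age, and P12 library 4 the highest of both. The sample labels call the cells epithelially derived, but the libraries also held RNA of odontoblasts and mesenchyme. Odontoblast and mesenchyme markers, led by Col1a1, summed to at least 1012036 and at most 1205812 at P5. At P12 their sums ran from 881115 to 1141532, with 1 of 5 (Col3a1) higher and 2 (Dmp1 and Col1a2) lower at P12. Col3a1, a small part of these sums at P5, rose from 4414 ± 235 to 54909 ± 25880 (SD, n = 4 each), with a log2 fold change of 3.64. In such bulk samples, fewer cells of a type and less RNA per cell cannot be told apart.

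Calb1 had the highest level per kilobase of the 6 genes at both ages. At P5 it reached 6949 ± 696 normalized counts per kilobase (SD, n = 4), rank 60 of the 16440 genes tested. Calm2 followed with 3047 ± 184 and Calm3 with 1208 ± 37.1, and the remaining buffers were far lower. S100g stood at 42.9 (from 30.2 to 64.3 in the 4 libraries), Calb2 at 20.1 ± 8.68 and Pvalb at 8.46 ± 4.54 normalized counts per kilobase. Neighbours in this order did not overlap between libraries, except Calb2 and Pvalb. At P12 the levels per kilobase were 5080 ± 3317 for Calb1, 2637 ± 291 for Calm2, 1415 ± 73.4 for Calm3 and 137 ± 14.1 for S100g. Pvalb followed with 26.7 ± 13.9 and Calb2 with 5.90 ± 6.70 normalized counts per kilobase. At this age Calb1 overlapped Calm2, and Pvalb, now above Calb2 in the mean, overlapped it.

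The edgeR filter kept all 6 genes, and 4 of them differed with age by edgeR's quasi-likelihood test at an adjusted p under 0.05. Over all genes tested, 57.2% did so. S100g, Pvalb and Calm3 were higher at P12, against 28.8% of all genes, and Calb2 was lower, against 28.4%. The libraries of the ages did not overlap for S100g and Calm3, 2 of the 6, against 52.5% of all genes. The median log2 fold change was 0.01 for the 6 genes and 0.01 for all genes tested. With 6 genes such shares are coarse, and the number called ran from 2 at an adjusted p under 0.01 to 6 without P12 library 4.

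**Figure D1:**
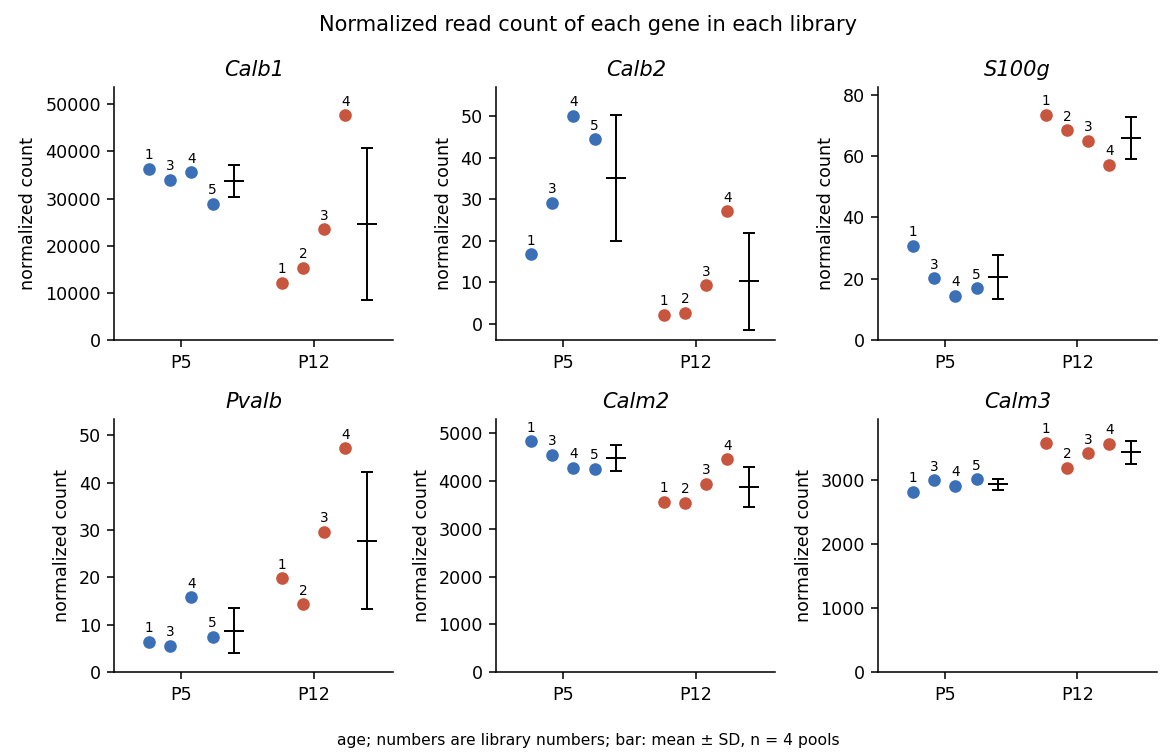
Normalized read count (vertical axes, from 0 or just below) of each gene in each library at P5 (blue) and P12 (red), with library numbers beside the points and the mean ± SD of 4 pools as a bar. S100g and Calm3 separate by age, and P12 library 4 lies apart for Calb1, at 47635 against at most 23468 in the other P12 libraries.

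Calb1 (ENSMUSG00000028222; chromosome 4 in GRCm38, 15881264 to 15908064, forward strand) encodes calbindin-D28k, and its exons overlap no other gene. Its coding sequence in GENCODE release M21 gives a protein of 261 residues with 4 matches to the EF-hand loop pattern. The normalized count was 36295, 34013, 35569 and 28824 at P5 and 12081, 15287, 23468 and 47635 at P12. All P5 libraries lay close together, 3 P12 libraries lay below all of them, and P12 library 4 lay above all of them. Mean Calb1 was 33675 ± 3372 at the younger age and 24618 ± 16076 at the older (SD, n = 4 each). Its log2 fold change of -0.45 (SE 0.34) did not pass edgeR's quasi-likelihood test (adjusted p = 0.28). Without P12 library 4, it was -1.0 (SE 0.18, edgeR's quasi-likelihood test, adjusted p = 0.00035), while the adjusted p ranged from 9.9e-05 to 0.79 over all alternatives.

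P12 library 4, the highest for Calb1, also had the highest sums of secretory and of maturation ameloblast markers at P12. Amelx was 24448, 23064, 58081 and 96613 in the P12 libraries, so that its order there differed from that of Calb1 only between libraries 1 and 2. Oral mucosa markers, by contrast, had their lowest P12 sum in library 4, but at P5 their sums ranked the libraries as Calb1 did. Their 7 genes were all higher at P12 and were led by Krt6a. They summed to 1640, 1371, 1403 and 843.6 at P5 and to 50960, 62535, 40799 and 13063 at P12, lowest in library 4. The part of these cell types in the Calb1 values was not tested. Atp2a2, the calcium pump of the endoplasmic reticulum, was likewise highest in that library, with 16105, 21251, 24798 and 43541 at P12 and between 16628 and 18086 at P5. The genes with profiles most like that of Calb1 over the 8 libraries, among 11345 compared, were A430106G13Rik, Ppargc1a and Zfp385b, with root mean square differences of 0.148, 0.186 and 0.214 log2 units.

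**Figure D2:**
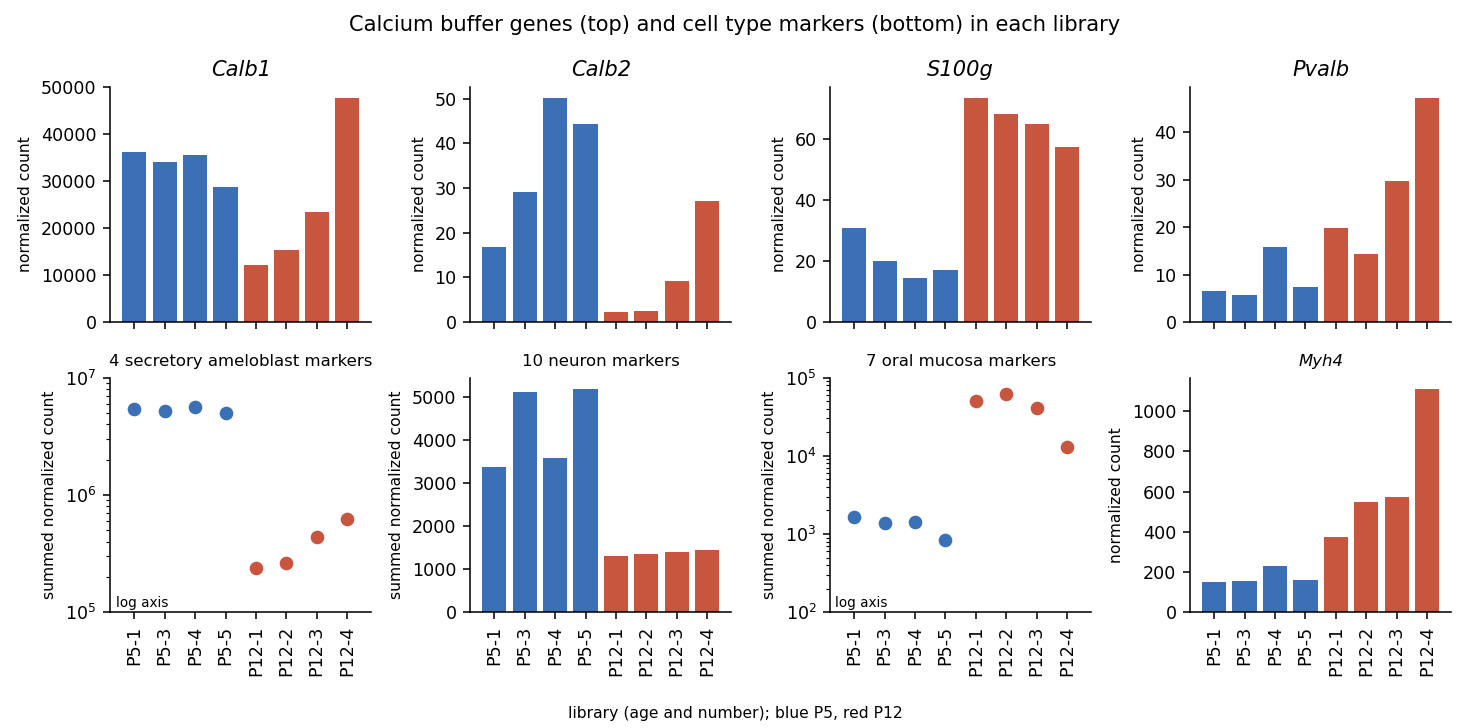
Normalized counts of Calb1, Calb2, S100g and Pvalb (top) in each library, above the summed normalized counts of secretory ameloblast, neuron and oral mucosa markers and the normalized count of the muscle gene Myh4 (bottom), with P5 in blue and P12 in red. Among P12 libraries, library 4 is highest for Calb1, Calb2, Pvalb, the secretory sum and Myh4, and lowest for S100g and the oral mucosa sum. Myh4 is 1 of 3 muscle genes higher at P12, whereas 7 of the 13 tested are lower. Of the muscle genes not shown, Mylpf and Tnni2 are lowest in library 4 at P12, and Myh1 and Atp2a1 are highest. The plots with points have log axes.

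Calb2 (ENSMUSG00000003657; chromosome 8, 110137502 to 110168210, reverse strand) encodes calretinin, a buffer best known from neurons. Its 271 residues hold 5 matches to the EF-hand loop pattern, and 158 of 260 aligned residues (60.8%) are identical to those of Calb1. Only 13, 26, 38 and 42 reads were counted at P5 and 3, 3, 10 and 27 at P12. These correspond to normalized counts of 16.7, 29.1, 50.1 and 44.5 at P5 and 2.20, 2.53, 9.27 and 27.1 at P12. Libraries 1 and 2 at P12 were at the floor of 3 counts, and library 4 lay within the P5 range. The log2 fold change was -1.84 (SE 0.64, edgeR's quasi-likelihood test, adjusted p = 0.03), and the exact permutation test over 4 against 4 libraries gave a two-sided p of 0.0571. The call was lost when P5 library 3, 4 or 5 or P12 library 1, 2 or 3 was left out, at log2 fold changes of -1.92, -1.62, -1.70, -1.47, -1.51 and -1.81. Without P12 library 4 it was -2.94. Over all alternatives, edgeR's quasi-likelihood test and its replacements gave adjusted p from 0.00048 to 0.14.

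Most neuron markers fell as Calb2 did. Of 10 genes tested, 8 were lower and 0 higher at P12 in the same edgeR fit, and Nefl was at 0 in P12 library 3. They summed to 3372, 5115, 3593 and 5198 at P5 and to 1299, 1348, 1400 and 1439 at P12, with Tubb3 the most abundant. At P5, library 4 had the highest Calb2 value and a low sum. At P12, the sums ranked the libraries as Calb2 did, though over a narrower range. Of the 10 markers, 6 (Snap25, Syt1, Rbfox3, Nefl, Nefm and Uchl1) were highest at P12 in library 4. Syt1, for example, was 13.9, 11.8, 32.4 and 57.2 at P12. Tubb3 and Stmn2, which made up most of the P12 sum, were lowest in that library. The part of neurons in the Calb2 values was not tested. The log2 ratio of Calb2 to Calb1 per kilobase averaged -8.55 ± 0.80 before and -10.29 ± 0.87 after (SD, n = 4 each), and its values overlapped (p = 0.0571, exact permutation test, two-sided). The profile most like that of Calb2 was that of Tmem130, at a distance of 0.428 log2 units over the 8 libraries.

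S100g (ENSMUSG00000040808; chromosome X, 162961992 to 162964599, reverse strand) encodes calbindin-D9k, a small carrier of calcium known from intestine, kidney and uterus. Despite the common name it belongs to the S100 family, and 28 of 75 aligned residues (37.3%) are identical to those of Calb1. The protein has 79 residues with 1 match to the loop pattern, from which the first loop of S100 proteins departs. The P5 libraries held 24, 18, 11 and 16 reads of it and the P12 libraries 100, 81, 70 and 57. Normalized, this gave 30.9, 20.1, 14.5 and 16.9 at P5 and 73.3, 68.3, 64.9 and 57.2 at P12. Every P12 library lay above every P5 library, with library 1 the highest at both ages. S100g rose from 20.6 ± 7.21 to 65.9 ± 6.76 (SD, n = 4 each), with a log2 fold change of 1.68 (SE 0.25, edgeR's quasi-likelihood test, adjusted p = 0.00016). The exact permutation test gave a two-sided p of 0.0286, the smallest that 4 libraries against 4 allow.

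The log2 ratio of S100g to Calb1 per kilobase, which does not depend on scaling between libraries, went up from -7.39 ± 0.43 to -5.01 ± 1.02 (SD, n = 4 each; p = 0.0286, exact permutation test, two-sided). At P12, Calb1 was highest and S100g lowest in library 4, and Calb1 was lowest and S100g highest in library 1. Leukocyte, neutrophil and oral mucosa markers were also higher at P12. Of the leukocyte markers, 3 of 3 were higher, with sums of 899.9, 735.6, 792.2 and 638.2 at P5 and 1331, 1382, 1138 and 1027 at P12, Csf1r having the highest counts and Cd68 the highest level per kilobase at P12. Of the neutrophil markers, 6 of 8 were higher, with sums of 2862, 2367, 2795 and 2155 at P5 and 4686, 4056, 3922 and 3494 at P12, led by S100a9. In all 3 of these sets, library 4 had the lowest sum at P12 and library 5 the lowest at P5, and none of their genes was at 0. Schwann cell markers (3 of 6 higher, 0 lower) summed to 1710, 1469, 1439 and 1175 at P12. These sums and the neutrophil sums ranked the P12 libraries as S100g did. So did the mesenchyme marker Col3a1, at 86935, 64842, 35470 and 32390. At P5 each of these orders differed from that of S100g. Endothelial markers (3 of 3 higher) had sums of 3719 to 4031 at P12, highest in library 4. The part of these cell types in the S100g values was not tested. Profiles most like that of S100g were those of Cd68, Capn6 and Nr1d1, at distances of 0.184, 0.192 and 0.198 log2 units. Cd68 is one of the leukocyte markers and had a log2 fold change of 1.53. The other leukocyte markers, Ptprc (0.59) and Csf1r (0.44), rose less and overlapped between the ages.

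S100g is a classical target of the vitamin D receptor in intestine, and its upstream sequence is shown for that reason. RefSeq's promoter table held 3 of the 6 genes (S100g, Pvalb and Calm3) and not Calb1, Calb2 or Calm2. The 250 bases before the S100g start, chrX:162964600-162964849 on the reverse strand of GRCm38.p6, are given 5′ to 3′ with matches to AGGTCA, the half-site bound by many nuclear receptors, on either strand in capitals.
S100g: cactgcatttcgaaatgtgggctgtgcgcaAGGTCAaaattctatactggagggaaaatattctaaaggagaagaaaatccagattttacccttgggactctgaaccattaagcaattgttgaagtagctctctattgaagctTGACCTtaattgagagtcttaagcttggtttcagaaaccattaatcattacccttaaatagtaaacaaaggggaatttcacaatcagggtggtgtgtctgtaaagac
AGGTCA was found once on each strand. With the matches on opposite strands, the window held no direct repeat of these letters. Of 32851 promoters of the same length, 4607 hold AGGTCA at least once and 446 hold 2 or more. TATAAA and GGGCGG, searched on both strands, were not in this window, and 12.4% and 32.7% of promoters hold them. Neither was in the Calm3 and Pvalb windows. A match is a description of letters and not of binding. Among vitamin D and calcium entry genes, 5 of 7 were tested, 1 rose and 1 fell (2 higher and 1 lower with total count scaling). Vdr, the receptor, rose from 770.1 ± 88.3 to 1611 ± 259 (SD, n = 4 each), with a log2 fold change of 1.06 (SE 0.12), and its partner Rxra fell by 0.71 (SE 0.06) on the log2 scale. The log2 fold changes of Rxrb (-0.12), Cyp27b1 (-1.22) and the epithelial calcium channel gene Trpv6 (-0.47) did not pass the edgeR test. Cyp24a1, which breaks down vitamin D, and Trpv5 had no reads at P5 and at most 2 and 8 reads in any P12 library.

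Most tested genes of the S100 family were higher at P12, like S100g. Of 10 tested other than S100g, 8 were higher and 0 lower at P12, against 28.8% and 28.4% of all genes. Their median log2 fold change was 1.36. S100a6 rose from 566.0 ± 57.3 to 8741 ± 1795 (SD, n = 4 each), with a log2 fold change of 3.95. S100a14 followed with 2.39 and S100a13 with 1.77. At P12, S100a6 and S100a14, like the oral mucosa markers, were highest in library 2 and lowest in library 4, and the part of mucosa in their values was not tested. S100a10 (-0.08) and S100b (-0.02), whose fold changes did not pass the test, were named after their values were seen. Of the 11 tested genes of the family, 3 (S100a8, S100a9 and S100b) are also on the marker lists of neutrophils or Schwann cells.

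Pvalb (ENSMUSG00000005716; chromosome 15, 78191114 to 78206400, reverse strand) encodes parvalbumin, the buffer that speeds relaxation of fast muscle and is also found in some neurons. Its protein has 110 residues with 2 loop matches. Very few reads fell on it, with 5, 5, 12 and 7 in the P5 libraries and 27, 17, 32 and 47 in the P12 libraries. Normalized, these counts came to 6.43, 5.59, 15.8 and 7.41 at P5 and 19.8, 14.3, 29.7 and 47.2 at P12. P5 library 4 stood above P12 library 2, so that the ages overlapped, and P12 library 4 was the highest of all. The log2 fold change was 1.65 (SE 0.46, edgeR's quasi-likelihood test, adjusted p = 0.01), and the exact permutation test gave a two-sided p of 0.0571. With total count scaling the ages did not overlap (exact permutation test, two-sided p = 0.0286, mean log2 difference 1.86). Profiles most like that of Pvalb were those of Cnnm4, Nog and Slc26a7, at distances of 0.357, 0.368 and 0.369 log2 units.

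Genes of fast muscle moved both ways between the ages. Of 13 tested, 3 (Myh1, Myh2 and Myh4) were higher and 7 lower at P12, and Tnnc2 was at 0 in every library. They summed to 1270, 1693, 1843 and 1102 at P5 and to 1023, 1247, 1331 and 1837 at P12. Acta1 had the highest level per kilobase at both ages. Myh4, with the highest count at P12, was 147.8, 154.3, 230.7 and 157.7 at P5 and 371.7, 550.1, 571.7 and 1111 at P12. Pvalb, Myh4 and the sum were thus all highest in library 4 at each age, though Myh4 made up 1111 of the sum of 1837 at P12. Myh1 (170.7) and Atp2a1 (36.1) were also highest at P12 in that library, whereas Mylpf (69.3) and Tnni2 (24.1) were lowest. The other tested muscle genes were neither highest nor lowest there. Myh8, the perinatal myosin, fell from 109.9 ± 41.4 to 22.3 ± 10.4 (SD, n = 4 each). The part of muscle in the Pvalb values was not tested. Schwann cell markers (3 of 6 higher, 0 lower) had sums of 719.7 to 1008 at P5 and 1175 to 1710 at P12. Endothelial markers (3 of 3 higher) had sums of 1922 to 2306 and 3719 to 4031.

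Calm2 (ENSMUSG00000036438; chromosome 17, 87433412 to 87446935, reverse strand) and Calm3 (ENSMUSG00000019370; chromosome 7, 16915379 to 16924114, reverse strand) encode the same calmodulin protein. Their coding sequences in GENCODE M21 each give 149 residues with 4 loop matches and 100% identity. The bases differ, however, and this is what lets reads be assigned to 1 gene. Calm2 and Calm3 differ at 78 of 450 coding bases. The first 120 coding bases are shown, with capitals at the 18 positions where Calm2 and Calm3 are not alike.
Calm2: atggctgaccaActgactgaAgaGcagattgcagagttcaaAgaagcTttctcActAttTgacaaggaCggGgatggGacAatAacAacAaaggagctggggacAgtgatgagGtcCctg
Calm3: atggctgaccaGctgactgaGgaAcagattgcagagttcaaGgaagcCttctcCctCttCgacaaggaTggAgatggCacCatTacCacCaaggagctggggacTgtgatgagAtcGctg
Transcripts of Calm2 shared 9.72% of their 50-base words with other genes, which were 3 processed pseudogenes with at most 2 reads in any library. For Calm3 the share was 2.52%, with 1 pseudogene of at most 1 read. Calb1, Calb2, S100g and Pvalb shared no such word.

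The normalized count of Calm2 was 4820, 4547, 4274 and 4241 at P5 and 3557, 3538, 3935 and 4447 at P12. P12 libraries 1, 2 and 3 lay below all P5 libraries, and library 4 lay among them. The log2 fold change of -0.21 (SE 0.08) did not pass edgeR's quasi-likelihood test (adjusted p = 0.053). It did without P12 library 4, at -0.29, or without P5 library 5, at -0.24 (edgeR's quasi-likelihood test, adjusted p = 0.003 and 0.048, over all alternatives from 0.001 to 0.16). With total count scaling it was 0.16, below the median of 0.38 of all genes under that scaling.

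Calm3 counted 2809, 2989, 2904 and 3004 at P5 and 3568, 3184, 3411 and 3552 at P12 after normalization. All P12 libraries lay above all P5 libraries. It rose from 2927 ± 90 to 3429 ± 178 (SD, n = 4 each), with a log2 fold change of 0.23 (SE 0.06, edgeR's quasi-likelihood test, adjusted p = 0.007; exact permutation test, two-sided p = 0.0286). The change was 1.17-fold. With total count scaling the log2 fold change of Calm3 was 0.60, above the median of 0.38 of all genes under that scaling. The log2 ratio of Calm3 to Calm2 per kilobase moved from -1.33 ± 0.12 to -0.89 ± 0.14 (SD, n = 4 each). It did not overlap between the ages (exact permutation test, two-sided p = 0.0286).

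Profiles most like that of Calm2 were those of Csnk1g3, Csnk2a1 and Dhx9, at distances of 0.024, 0.042 and 0.043 log2 units, and those most like Calm3 were Icmt, Lrig2 and D17Wsu92e, at 0.031, 0.035 and 0.041.

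Calmodulin-like genes and proteins around the buffers were compared in the same edgeR fit, in which 28.8% of all genes were higher and 28.4% lower. The calmodulin-like genes Calml3, Calm4 and Calml4 (3 of 6 tested) were all higher. Calml3, a calmodulin of stratified epithelia, rose from 76.0 ± 19.7 to 1793 ± 912 (SD, n = 4 each) and Calm4 from 50.7 ± 21.2 to 704.9 ± 421 (SD, n = 4 each). Both were lowest at P12 in library 4, at 485.9 and 96.4, as were the oral mucosa markers, whose part was not tested. Of 12 tested genes listed as neuronal-type sensors, 8 were lower and 1 (Hpcal1) higher (6 lower and 2 higher with total count scaling). The lower ones included Necab1 at a log2 fold change of -4.28 and Tesc at -4.12. Tesc had 972.2 normalized counts per kilobase at P5, against 909.8 for Tubb3, the most abundant neuron marker. At P5, Tesc was highest in library 4 and lowest in library 3, an order that the neuron sums did not share. Neuron markers were lower in 8 of 10 cases, and their part in these values and in those of Camk4 and Gap43 was not tested. Of 13 ubiquitous EF-hand proteins, 8 were higher and 0 lower (12 and 0 with total count scaling), with a median log2 fold change of 0.42, and Efhd2 (1.46) and Cib2 (1.07) were among them.

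Targets of calmodulin, which Calm2 and Calm3 serve, moved both ways. Of 31 tested, 10 were higher and 13 lower, with a median log2 fold change of 0.18. Total count scaling turned this to 16 higher and 10 lower. For these and the following lists, the shares over all genes tested were 28.8% higher and 28.4% lower in the reported fit. Camk4 (-2.24), Camk1g (-1.82) and the neuronal protein gene Gap43 (-2.60) fell, and Mylk (1.64), Camk1d (1.55) and Iqgap1 (1.07) rose. Of 16 pumps and exchangers, 4 were higher and 6 lower. Slc24a4, the exchanger of maturation ameloblasts, rose by a log2 fold change of 3.46 and Atp2a3 by 1.01. The far more abundant Atp2a2 was called at 0.61 (SE 0.24, edgeR's quasi-likelihood test, adjusted p = 0.049). Its values overlapped between the ages, and the highest, 43541, was in P12 library 4. Slc24a3 (-3.33), Slc24a2 (-2.30) and the plasma membrane pump gene Atp2b1 (-0.97) fell. Mitochondrial uptake genes were higher in 5 of 9 cases and lower in 1 (Micu3, -0.65), with Mcub at 2.93, and total count scaling made this 8 higher and 1 lower. Annexins were higher in 7 of 11 cases and lower in 3 (9 higher and 2 lower with total count scaling). Among them were Anxa8 at 5.77, Anxa1 at 3.44, Anxa6 at -0.74 and Anxa11 at -0.20. Anxa13 (-7.43), a scarce gene named after its values were seen, had the largest fall. At P12, Anxa8 and Anxa1 were highest in library 2 and lowest in library 4, like the oral mucosa markers, whose part was not tested. Luminal proteins of the endoplasmic reticulum were higher in 5 of 15 cases, as Calr at 0.38, and lower in 7, as Rcn3 at -0.81. The median log2 fold change of the pumps was -0.35 and that of the luminal proteins -0.12, and total count scaling turned these to 0.02 (5 higher, 5 lower) and 0.25 (7 higher, 2 lower).

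**Figure D3:**
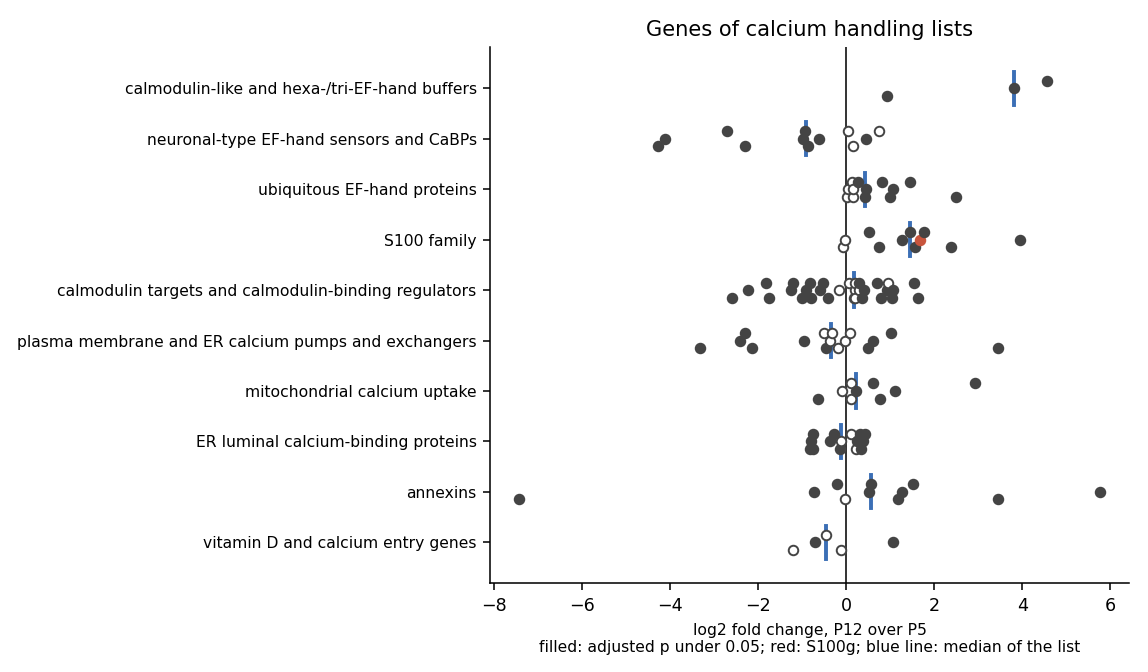
Log2 fold change of P12 over P5 (horizontal axis) of each tested gene, by list (vertical axis). Filled points passed the edgeR test at an adjusted p under 0.05, the red point is S100g, and blue lines are list medians. S100g (1.68) lies above the S100 family median of 1.46, which counts S100g itself and is 1.36 without it. Neuronal sensors lie mostly left of 0.

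**Figure D4:**
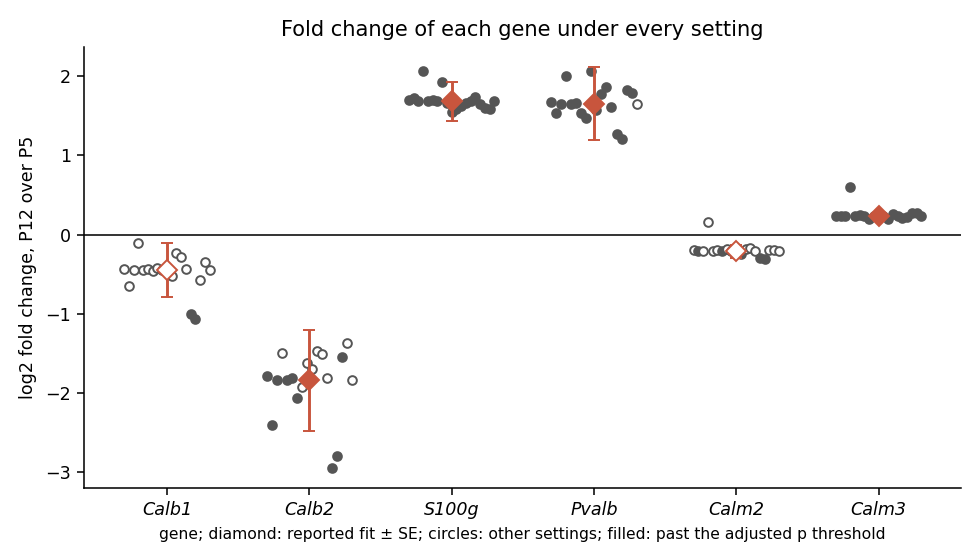
Log2 fold change of each of the 6 genes (vertical axis) in the reported edgeR fit (diamonds, ± SE) and under every other setting (circles), filled where the adjusted p passed the threshold. S100g ranges from 1.55 to 2.06 and is filled throughout, Calb1 passes only in the fits without P12 library 4 (-1.0 and -1.06), and Calm2 turns positive (0.16) with total count scaling.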

How the data were processed

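The authors deposited whole-number read counts per gene without normalization, with gene names, coordinates and lengths. The submitters' processing notes name CASAVA and the build mm39, but 53585 of the 54532 genes have the coordinates of GENCODE M21 (GRCm38), which are used here. The aligner and counting program are not given in the sources used here. Within each age, all 12 pairs of libraries were further apart than sampling of reads alone would make them (chi-square over its degrees of freedom, 5.11 to 83.4). Pairs with P12 library 4 were at 35.1, 65.2 and 83.4, and the other P12 pairs from 9.35 to 20.9. Those with P5 library 5 ran from 18.8 to 20.4, and the other P5 pairs from 5.11 to 6.35. The ages were compared in R 4.3.3 by the quasi-likelihood F test of edgeR 4.0.16 after filterByExpr and TMM, using age alone as the term. Benjamini-Hochberg adjustment ran over 16440 genes with a threshold of 0.05. SE is the log2 fold change divided by the root of the F statistic. Normalized counts were scaled to a mean library size of 19006280. A floor of 3 counts corresponds to between 0.136 and 0.181 CPM and covers counting error only. Each pool is 1 sample, so n = 4 pools at each age.

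Single values were compared by exact permutation over all 70 ways of placing 4 of the 8 libraries in 1 group, two-sided. It used log2(normalized count + 1) or log2 ratios per kilobase. Likeness of profiles is the root mean square difference of mean-centred log2 values among genes with a mean of at least 100. Genes named beside the 6 are up to 3 rises and 3 falls with the largest fold change per list among called genes with that mean, every vitamin D gene, every marker and the most similar profiles. Calml4 was named outside this rule, with the other tested genes of its list. The fit was tested on simulated data. Coding sequences come from GENCODE M21 and promoters from RefSeq (GRCm38.p6), read with biopython 1.88. EF-hand loops were matched by the PROSITE pattern in translated coding sequences. Python 3.11.15 ran the remaining steps (pandas 2.3.3, numpy 2.4.6, scipy 1.17.1, matplotlib 3.10.9). Alternatives were DESeq2 1.42.0, limma-voom (limma 3.58.1), other scalings, filters and thresholds, and libraries left out. The 6 genes, the lists and the tests were chosen with earlier results of these data known. Results that need withheld items are not reported here.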

Additional observations from a re-analysis of the deposited data

Results flagged for a closer look

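Of 236 sets of 4 libraries of 1 gene or ratio at 1 age, 10 held a library far from the other 3 (its gap to the nearest divided by the whole range exceeded Dixon's 95% critical value), where chance gives about 1 in 20, or 11.8. None of them was a value of the 6 genes or of a ratio between them. At P12, library 4 stood high for Cabp1 (122.5, the others from 68.4 to 77.0) and Gap43 (105.4, from 41.1 to 49.1), and library 2 for Prph (12.7, from 3.71 to 5.13). At P5, library 4 stood high for Myh4 (230.7, from 147.8 to 157.7) and low for Col1a2 (325109, from 363910 to 371203). P5 library 5 stood low for Mylpf (146.1, from 205.6 to 211.3) and Krt76 (5.29, from 21.2 to 24.4) and high for Dmp1 (2078, from 1444 to 1515). P5 library 3 stood high for Nefh (166.6, from 41.1 to 59.3) and P5 library 1 for Cd68 (132.4, from 95.3 to 99.5). All values are normalized counts.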

How the results depend on the processing

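S100g and Calm3 kept their direction and their call under all 19 alternatives, with log2 fold changes from 1.55 to 2.06 and from 0.20 to 0.60. Pvalb kept both in 17 of 18 and lost its call only at an adjusted p under 0.01 (1.65). Calb2 kept its direction in all 18 and its call in 9, and was not called at that threshold (-1.84). Pvalb and Calb2 did not reach 10 counts in every library and could not be fitted under that filter. Calb1 was called only without P12 library 4 (-1.0) and without P5 library 5 and P12 library 4 together (-1.06), and otherwise lay between -0.11 and -0.65. Calm2 was called by limma-voom (-0.21), with at least 10 counts in every library (-0.21) and without P5 library 5 and P12 library 4 (-0.31). With single libraries left out, log2 fold changes ranged from -1.0 to -0.23 for Calb1, from -2.94 to -1.47 for Calb2 and from -0.29 to -0.17 for Calm2. Total count scaling shifted the median gene from a log2 fold change of 0.01 to 0.38, and the genes called from 4735 higher and 4676 lower to 8885 higher and 2330 lower. Under it Calm2 reversed to 0.16, also as a mean log2 difference by library (0.16), and Calb2 lost its call (-1.49). Relative to that median they lay at -0.22 and -1.87, and Calb1 at -0.49. No pairing by replicate number was seen, as deviations of same-numbered libraries correlated at -0.027, 0.019 and 0. Correlations over many genes cannot exclude a pairing that touches few of them. With the number as a replicate block over the 6 libraries that share one, 7710 genes were called, against 8117 without it, and Calb2 was called at -1.54 with it but not without it (-1.37). The cause of these changes was not tested. Calb2 and Pvalb had at most 42 and 47 reads in a library.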
